A study of Mus musculus with 12 samples.

Results

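The genes described here changed by more than 1 on the log2 scale over 4 h of culture, in the same direction and to a like extent, in WT and GPR174-deficient (KO) follicular B cells. Of 12837 genes counted at both times, 8820 had a mean CPM of 8 or more over the 4 groups, and 65 of these met the rule. CPM was the count divided by the library total, on a scale where each library sums to 1000000, and a gene's change was log2 of the 4 h group mean plus 1 over the 0 h group mean plus 1. A gene was kept when that change passed 1 in both genotypes with the same sign and the WT and KO changes lay within 0.4 of each other. There were 17 raised and 48 lowered genes. With TMM scaling, which centres each library on most of its genes, the rule gave 9 raised and 56 lowered genes, 56 of them among the 65. The genes were thus chosen by their measured culture changes and by the difference of these between genotypes, which are given below as a description without a test.

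The cells were splenic follicular B cells, sorted as CD21/35- CD23+ from male mice. WT mice were Gpr174+/Y. KO mice were Gpr174-/Y, with the coding exon of this X-linked receptor gene replaced by tdTomato in all cells, so the deletion was not restricted to B cells. RNA was taken from sorted cells directly (0 h) or after 4 h in complete medium without added stimulus, with 3 libraries for each genotype and time. All 4 groups share the sort, and both 4 h groups share the culture. No label says which 0 h and 4 h libraries came from the same mouse, and where libraries were not from separate animals the p-values measure only the spread between these libraries.

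Follicular B cells recirculate between blood, spleen and lymph nodes in a resting state that is kept by signals from their surroundings, among them chemokines, stromal ligands, circulating hormones and tonic receptor signals. Taking cells out of tissue removes these signals, and tissue dissociation and sorting add short-lived stress transcripts of their own. GPR174 is a receptor for lysophosphatidylserine that couples to the G protein Gs and raises cyclic AMP. The comparison of WT with KO separates culture changes by whether the cells carried this receptor.

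The targeted gene was read first in every library. *Gpr174* was counted at 141, 142 and 151 CPM in WT 0 h and at 72.0, 75.1 and 72.3 CPM in KO 0 h. At 4 h it was at 163, 177 and 158 CPM in WT and at 123, 109.9 and 109.6 CPM in KO. The KO libraries were lower than the WT libraries at both times, and reads from the sequence that the allele keeps cannot be told from a transcript of the receptor. Library totals ran from 6098941 to 11618787 counts, and the ribosomal precursor row *Rn45s* took 6.65% to 11.3% of them. The summed follicular B cell markers were at 15049 to 16810 CPM in the 0 h libraries and 12514 to 14524 CPM in the 4 h libraries. The 65 genes took 0.572% to 0.606% of the reads in the 6 libraries of 0 h and 0.297% to 0.338% in the 6 libraries of 4 h. The lowered genes went from 0.539% to 0.575% at 0 h to 0.188% to 0.239% at 4 h, and the raised genes from 0.0290% to 0.0328% to 0.0915% to 0.109%.

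**Figure D1:**
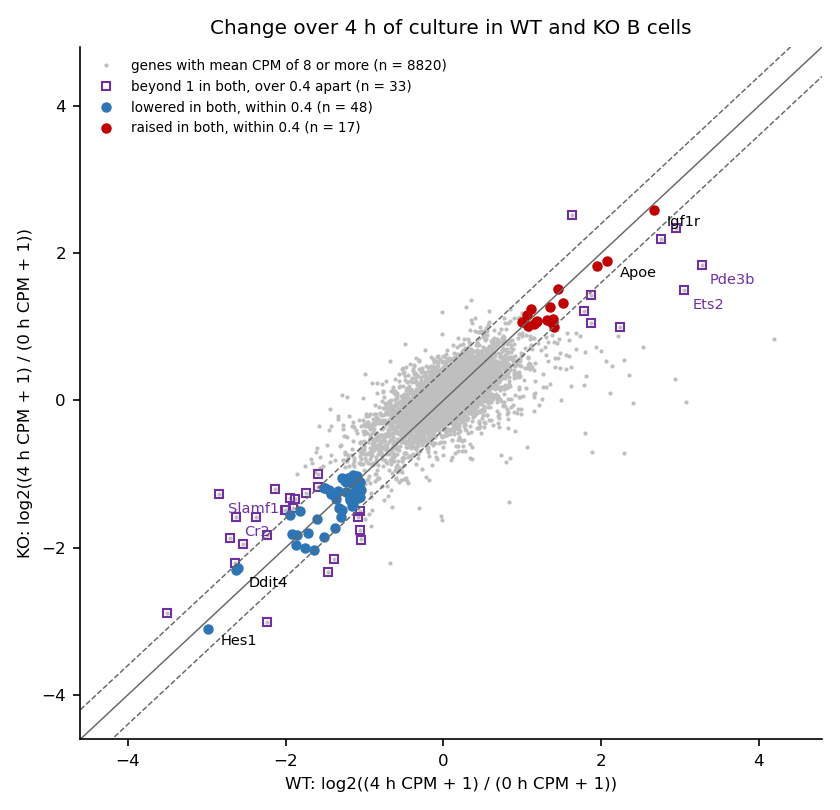
Change over culture in WT (x axis) against KO (y axis), both as log2((4 h mean CPM + 1)/(0 h mean CPM + 1)), 1 point per gene. Filled points are the 48 lowered and 17 raised genes, open squares the 33 genes that changed beyond 1 in both genotypes but more than 0.4 apart, and the dashed lines mark a difference of 0.4 on either side of equal change.

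Genes that passed the size limit in both genotypes were few. Among the 8820 genes, 268 (3.04%) changed beyond 1 in WT, 154 (1.75%) in KO, and 98 (1.11%) in both with the same sign. The 65 genes were 0.737% of the 8820. The other 33 genes changed the same way in both genotypes but more than 0.4 apart, and 25 of these had the larger change in WT. Among them *Slamf1*, an adhesion receptor, changed by -2.84 in WT and -1.28 in KO, and *Ets2*, a transcription factor, by 3.05 and 1.5. Among the 65 genes the larger change was in WT for 38 and in KO for 27, and the median difference in size was 0.13. The limit of 0.4 bounded the estimates, not their errors. An interval of 2 standard errors on either side of edgeR's difference between the WT and KO changes reached beyond 0.4 for 56 of the 65 genes, and stayed within it for 9. These 9 were *Tagln2*, *Tsc22d3*, *Crip1*, *Cd97*, *Midn*, *Dusp7*, *Cd69*, *Plbd1* and *Tifa*. They were not all the genes with the smallest standard errors. The interval left out equal change for *Myadm*, *1300014I06Rik*, *Pld4*, *Anxa6*, *Nlrc5* and *Chst10*. It ran from -0.60 to -0.21 for *1300014I06Rik* and from 0.03 to 0.72 for *Chst10*, so a like change in these genes holds only within the limit on the estimates.

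The genes ranged from a mean of 8.02 CPM (*Tspan18*) to 460.5 CPM, with a median of 28.8 CPM. The highest mean of those named was 451.3 CPM (*Cd97*). The median change of the lowered genes was -1.26 in WT and -1.29 in KO, and that of the raised genes 1.36 and 1.10. The mean of the WT and KO changes was 2 or more in size for 4 genes, namely *Hes1*, *Igf1r*, *Ddit4* and *Myadm*. The 0 h and 4 h libraries did not overlap in either genotype for 64 of the 65 genes, the exception being *Oasl2*, and for 31.1% of the 8820 genes. The rule's size limit, set on the same values, largely fixed this separation in advance. With edgeR's quasi-likelihood test all 65 were called for culture in WT and in KO, against 33.1% and 23.3% of the 11563 genes tested, which the rule had fixed.

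**Figure D2:**
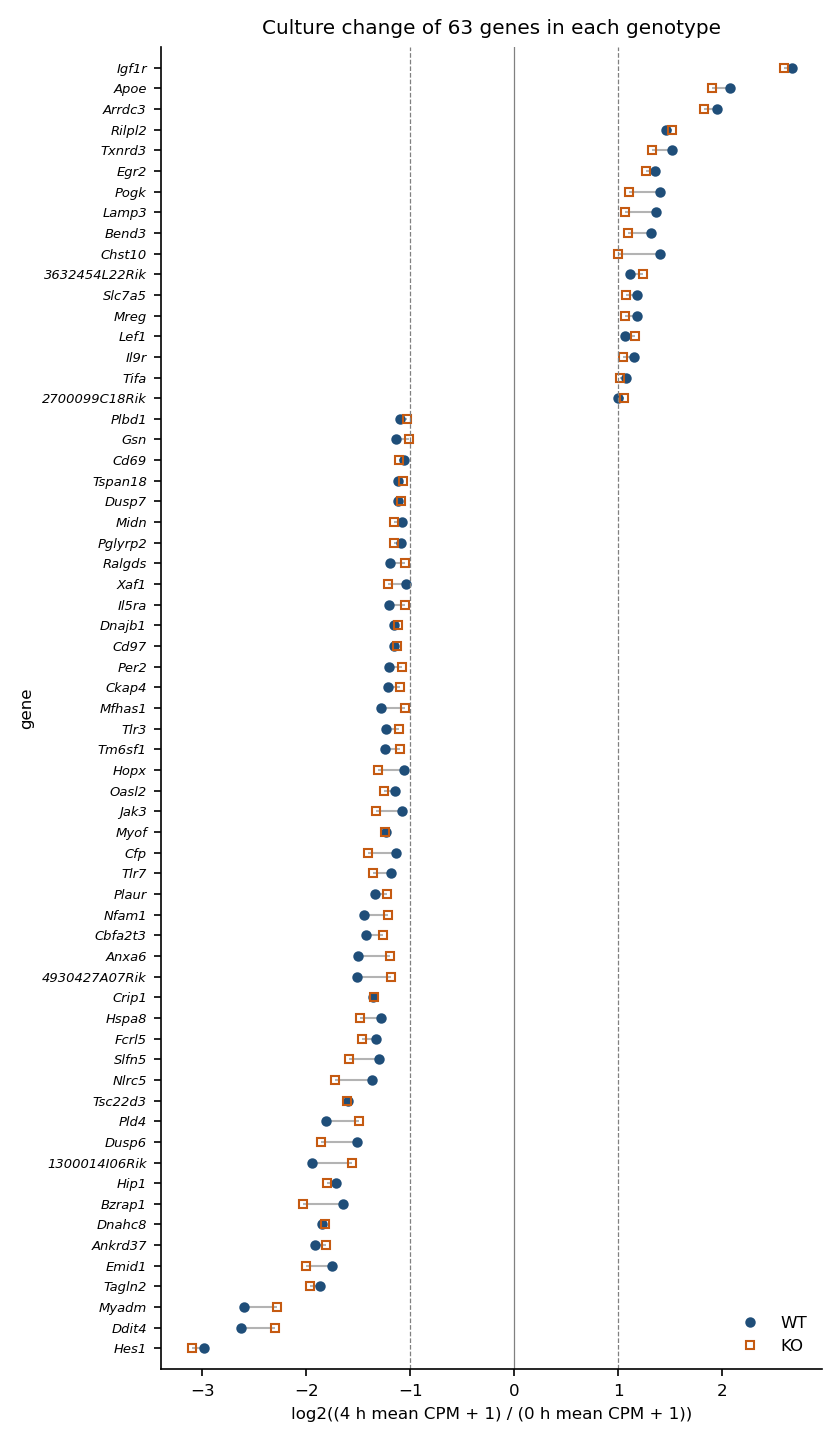
Culture change of 63 of the 65 genes, as log2((4 h mean CPM + 1)/(0 h mean CPM + 1)) on the x axis, in WT (filled circles) and KO (open squares), ordered by the mean of both. Dashed lines mark changes of 1 and -1, and a grey line joins the 2 values of a gene, which differ by at most 0.40.

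*Hes1* had the largest change of all 65. It encodes a transcriptional repressor that Notch receptors switch on and that has a very short-lived messenger. WT 0 h libraries held 36.7, 38.7 and 39.7 CPM and WT 4 h libraries 3.05, 4.59 and 4.26 CPM. KO 0 h libraries held 41.9, 38.7 and 37.0 CPM and KO 4 h libraries 3.15, 3.48 and 4.41 CPM. The 4 h level was low in all 6 cultured libraries and the groups were far apart, with a mean 7.92-fold lower in WT and 8.59-fold lower in KO on the scale of CPM plus 1. Here and below, genes outside the 65 are called raised or lowered where edgeR's culture test passed an adjusted p of 0.05, which it did for 15.1% (raised) and 18% (lowered) of all tested genes in WT and for 10.3% and 13% in KO. Of the 12 other tested genes of the Notch and marginal zone list, 4 were lowered in WT and 3 in KO, 3 of them in both, and 2 were raised in each. *Nrarp* and *Dtx1*, which Notch signals also induce, had fitted log2 changes of -0.36 and -0.49 in WT and -0.54 and -0.82 in KO. The summed marginal zone B cell markers also went down, from 1047 to 1253 CPM over the 0 h libraries to 242 to 446 CPM over the 4 h libraries. Most of this sum was *Cr2*. Its mean went from 1019 to 164 CPM in WT and from 940 to 312 CPM in KO. Of the 5 tested markers outside the 65 genes, 4 were lowered and 1 raised in both genotypes. The raised marker was *Cd9*, whose mean went from 1.82 to 3.89 CPM in WT and from 2.15 to 4.62 CPM in KO. *Myof*, which encodes the membrane-repair protein myoferlin, is on that marker list and was itself among the lowered genes. In bulk RNA a smaller share of such cells and less of the RNA in each cell cannot be told apart.

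Genes that glucocorticoids induce were among the largest decreases. *Ddit4*, which encodes an inhibitor of the mTORC1 kinase complex, was at 59.9, 51.1 and 55.6 CPM in WT 0 h and 9.64, 6.89 and 7.87 CPM in WT 4 h. In KO it went from 39.8, 50.6 and 36.6 CPM to 8.08, 8.45 and 6.83 CPM. The changes were -2.63 and -2.30, and the 4 h levels of the genotypes overlapped while the 0 h levels were higher in WT, where 1 KO library, at 50.6 CPM, came close to the lowest WT library. *Tsc22d3*, which encodes the glucocorticoid-induced leucine zipper GILZ, went from 563, 515 and 524 CPM to 159, 167 and 201 CPM in WT. In KO it went from 431, 495 and 378 CPM to 133, 153 and 140.2 CPM. Its changes, -1.60 in both, were 0.01 apart, yet every KO 0 h library lay below every WT 0 h library, and the same held at 4 h. *Per2*, a core component of the circadian clock, went from 17.8 to 21.7 CPM in WT 0 h to 6.26 to 9.18 CPM in WT 4 h, and from 16.8 to 22.8 CPM to 7.96 to 10.3 CPM in KO. The rest of the list was mixed. Of 16 other tested genes, 5 were lowered and 2 raised in WT, and 7 were lowered and 1 raised in KO, with median fitted log2 changes of 0.03 and -0.24. *Fkbp5*, a widely used glucocorticoid target, had changes of 0.15 in WT and -0.33 in KO.

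**Figure D3:**
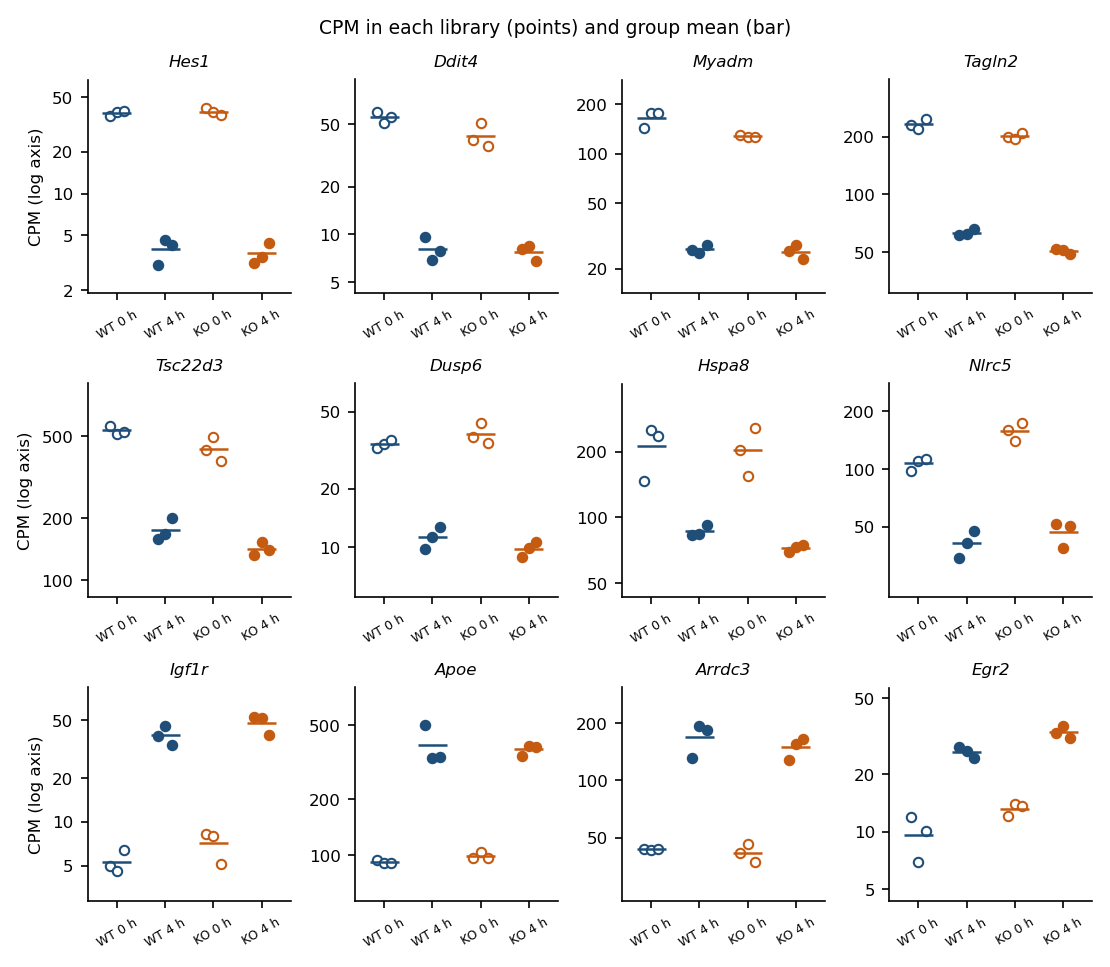
CPM on a log axis in each of the 12 libraries for 12 of the genes, 8 lowered and 4 raised. Open points are 0 h and filled points 4 h libraries, blue is WT and orange KO, and bars are the means of 3 libraries. In each panel the 0 h and 4 h points of a genotype do not overlap.

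A set of cytoskeletal and membrane genes was lowered. *Myadm*, which encodes a raft-associated membrane protein, went from 142, 176 and 176 CPM to 26.2, 25.1 and 27.8 CPM in WT and from 129, 126 and 127 CPM to 25.8, 27.8 and 22.9 CPM in KO. The 4 h levels nearly coincided, and the larger change in WT, -2.60 against -2.28, came from the higher 0 h level. *Tagln2*, encoding the actin-binding protein transgelin 2, went from 230.0, 219 and 248 CPM to 61.4, 62.0 and 65.8 CPM in WT. In KO it went from 199, 195 and 209 CPM to 52.2, 51.5 and 49.1 CPM. Here the KO libraries were the lower ones at both times. *Crip1*, a small LIM domain protein, was lowered by 1.36 in WT and by 1.34 in KO. The annexin *Anxa6* and the actin-severing protein gelsolin (*Gsn*) were lowered by 1.5 and 1.14 in WT and by 1.19 and 1.01 in KO. Of the 29 other tested genes of the actin and annexin list, 19 were lowered in WT and 21 in KO, 19 of them in both, and 3 and 1 were raised. Their median fitted log2 changes were -0.70 and -0.82, and the medians over all 11563 genes were 0.01 and 0.00. *Ahnak*, a large scaffold protein, had the largest change of the list, with -3.64 in WT and -2.99 in KO, and missed the rule because the changes were further apart than 0.4. *Actb*, encoding beta-actin, changed by -0.70 and -0.82.

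Feedback regulators and immediate early genes formed another set. These genes answer growth and stress signals within minutes and are known to rise during tissue dissociation. *Dusp6*, a phosphatase that switches off the kinase ERK, went from 32.4, 34.0 and 35.7 CPM to 9.80, 11.3 and 12.8 CPM in WT and from 36.8, 43.6 and 34.4 CPM to 8.90, 9.94 and 10.7 CPM in KO. *Dusp7*, a related phosphatase, was lowered by 1.12 and 1.09, *Midn*, a nuclear protein that targets short-lived proteins for degradation, by 1.08 and 1.15, and the early activation antigen *Cd69* by 1.06 and 1.11. *Egr2*, an early growth response transcription factor, went the other way. It was at 11.9, 6.94 and 10.1 CPM in WT 0 h and 27.8, 26.4 and 24.4 CPM in WT 4 h. In KO it was at 12, 13.9 and 13.6 CPM at 0 h and 33.0, 35.5 and 31.0 CPM at 4 h, so that KO was the higher genotype at both times. Among 27 other tested genes of the immediate early list, 14 were lowered and 7 raised in WT, and 14 were lowered and 4 raised in KO. *Fos* fell by 1.82 and 2.94 in the fit, and *Egr1* had changes of -0.11 and 0.10.

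Receptor-proximal signalling genes were lowered too. *Nfam1*, an ITAM-bearing receptor of B cells, was at 26.7, 28.6 and 24.2 CPM in WT 0 h and 11.9, 8.69 and 6.67 CPM in WT 4 h, and at 22.1, 18.6 and 18.3 CPM in KO 0 h and 6.3, 8.94 and 8.39 CPM in KO 4 h. The 4 h libraries lay below all 0 h libraries in both genotypes. *Nfam1* changed by -1.45 and -1.22, and *Ralgds*, an exchange factor for Ral GTPases, by -1.20 and -1.05. Of the 24 other tested genes of the B cell receptor and MAPK list, 14 were lowered and 3 raised in WT, and 13 were lowered and 5 raised in KO. *Jak3*, the kinase that serves the common cytokine receptor chain, changed by -1.08 and -1.33, and *Il5ra*, the ligand-binding chain of the interleukin-5 receptor, by -1.21 and -1.05. Of the 65 genes, the adhesion receptor *Cd97* was the most abundant of those named. It was at 576 to 639.7 CPM in the 0 h libraries and 242 to 304 CPM in the 4 h libraries, and its changes were 0.03 apart.

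The chaperones *Hspa8* and *Dnajb1* were lowered from 0 h levels that varied strongly between libraries. *Hspa8*, the constitutive Hsc70, was at 147, 251 and 237 CPM in WT 0 h and 203, 154 and 257 CPM in KO 0 h, and at 83.0, 84.1 and 91.9 CPM and 69.2, 73.4 and 74.8 CPM at 4 h. *Dnajb1*, its Hsp40 cochaperone, was at 163, 293 and 355 CPM in WT 0 h and 227, 154 and 296 CPM in KO 0 h, and at 103 to 125 CPM in all 6 libraries of 4 h. The same 0 h libraries, WT replicate 1 and KO replicate 2, were the lowest for both genes, and the 4 h libraries were close together. Of 21 other heat shock genes tested, 8 were lowered in WT and 6 in KO, while *Hspa1a*, the inducible Hsp70, rose by 2.90 in WT and 2.31 in KO.

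Interferon-stimulated genes and sensors of nucleic acids were lowered, and these were the genes for which 1 library mattered most. *Slfn5*, a Schlafen family protein, was at 205, 154 and 151 CPM and then 37.6, 36.2 and 132 CPM in WT, and at 205, 207 and 214 CPM and then 57.5, 81.2 and 67.8 CPM in KO. WT 4 h replicate 3 stood well above the other WT 4 h libraries. *Xaf1*, a pro-apoptotic interferon target, was at 8.99, 9.35 and 26.8 CPM in WT 4 h, after 30.9 to 32.5 CPM at 0 h. *Oasl2*, a ubiquitin-like antiviral protein, was at 4.02, 5.08 and 19.3 CPM in WT 4 h, where the highest library lay within the range of 18.2 to 25.1 CPM at 0 h. *Nlrc5*, the transactivator of MHC class I genes, was at 34.5, 41.0 and 47.4 CPM in WT 4 h after 98.2 to 114 CPM, and at 38.6 to 51.8 CPM in KO 4 h after 139 to 175 CPM. Its WT 4 h replicate 3 was not set apart in this way.

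The endosomal receptors for RNA followed. *Tlr7*, which senses single-stranded RNA, was at 97.8, 81.3 and 83.5 CPM in WT 0 h and 26.7, 27.5 and 59.4 CPM in WT 4 h, and at 99.6 to 115 CPM and 37.4 to 42.5 CPM in KO. *Tlr3*, which senses double-stranded RNA, changed by -1.23 and -1.10. *Pld4*, an exonuclease that degrades single-stranded nucleic acids in endosomes, went from 142, 147 and 168 CPM to 39.0, 46.1 and 42.7 CPM in WT and from 165, 156 and 168 CPM to 53.3, 52.3 and 65.6 CPM in KO. The 4 h levels of *Pld4* were all higher in KO. Of 12 other tested genes of the sensor list, 7 were lowered and 2 raised in WT, and 6 were lowered and 1 raised in KO, and *Tlr9*, the DNA sensor, had fitted changes of -0.83 and -0.74.

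**Figure D4:**
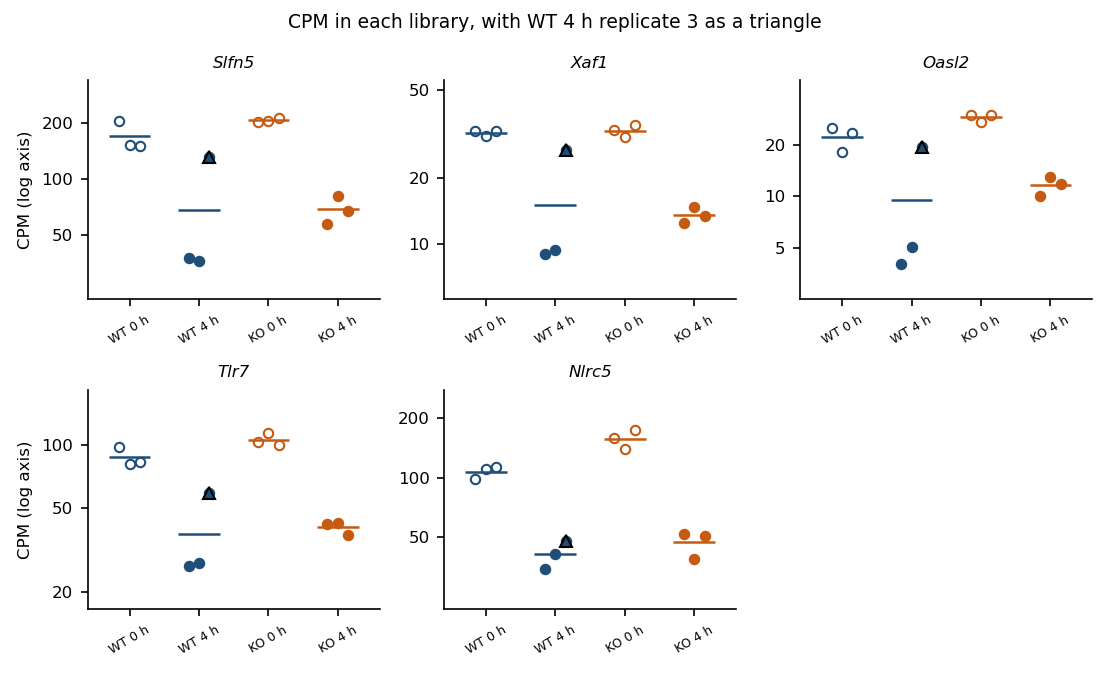
CPM on a log axis in each library for 4 interferon-stimulated genes and *Tlr7*. Bars are means of 3 libraries and the triangle marks WT 4 h replicate 3, which lies above the other WT 4 h libraries in all 5 panels and far above them in every panel but that of *Nlrc5*, where it was at 47.4 CPM against 34.5 and 41.0 CPM.

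WT 4 h replicate 3 set how alike the genotypes appeared in these genes. In 31 of the 52 interferon list genes found in both tables it was at least 1.5 times the mean of the other 2 WT 4 h libraries, which was so for 0.873% of the 8820 genes. The list summed to 1842, 2056 and 3071 CPM in the WT 4 h libraries and 2380 to 2505 CPM in KO 4 h, after 3951 to 4058 CPM in WT 0 h and 4318 to 4742 CPM in KO 0 h. Without that library the WT changes were -2.17 for *Slfn5*, -2.07 for *Oasl2* and -1.70 for *Xaf1*, in place of -1.30, -1.15 and -1.04. These 3 then differed from KO by more than 0.4 and no longer met the rule, whereas *Tlr7*, at -1.66, still did. Of the 47 other tested genes of the interferon list, 36 were lowered and 0 raised in WT, and 40 were lowered and 1 raised in KO, 32 of them lowered in both. Their median fitted log2 changes were -0.65 in WT and -1.17 in KO, with WT 4 h replicate 3 included. These 47 genes summed to 1574, 1748 and 2482.5 CPM in the WT 4 h libraries, after 3063 to 3115 CPM in WT 0 h. In KO they summed to 1977 to 2089 CPM at 4 h, after 3252 to 3457 CPM at 0 h. Whether the library differed in sorting, in culture or in its mouse was not tested.

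Among the raised genes, *Igf1r*, the receptor for insulin-like growth factor 1, was at 4.98, 4.59 and 6.46 CPM in WT 0 h and 38.7, 45.7 and 33.6 CPM in WT 4 h. In KO it was at 8.30, 7.97 and 5.11 CPM and then 52.3, 52.0 and 39.5 CPM. Both groups of 4 h libraries lay far above all 0 h libraries, with a 6.36-fold higher mean in WT and 6.02-fold in KO on the scale of CPM plus 1. *Arrdc3*, an arrestin-like adaptor for receptor internalization, went from 42.8 to 43.6 CPM to 132, 193 and 184 CPM in WT, and from 37.1 to 46.2 CPM to 129, 155 and 165 CPM in KO. Both genes are on the list of targets of FOXO1, the factor that nutrient and growth factor signals keep out of the nucleus. Of 21 other tested genes of the FOXO1 and insulin list, 7 were raised and 4 lowered in WT, and 8 were raised and 2 lowered in KO. *Il7r*, another target, had fitted changes of 1.21 and 1.01, and *Foxo1* itself 0.17 and 0.16.

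*Apoe*, encoding the lipid carrier apolipoprotein E, was the most abundant raised gene. It was at 94.4, 90.8 and 90.5 CPM in WT 0 h and 500.4, 332 and 338 CPM in WT 4 h, and at 96.8, 103 and 96.0 CPM in KO 0 h and 344, 388 and 381 CPM in KO 4 h. WT 4 h replicate 1 was the highest library and the other 5 libraries of 4 h were close together. *Apoe* is on the list of liver X receptor targets, which control cholesterol efflux. Of the other 16 tested genes of that list, 7 were lowered in WT and 7 in KO, and 1 was raised in WT and 0 in KO. *Abcg1*, a cholesterol exporter, had fitted changes of -1.19 and -1.62. The summed macrophage and monocyte markers went from 66.9 to 74.3 CPM at 0 h to 27.6 to 50.2 CPM at 4 h. The complement genes *C1qa*, *C1qb* and *C1qc*, which define macrophages, were listed at 0 h only. Of the 7 tested markers of this list, 4 were lowered in both genotypes, and 0 were raised in WT and 1 in KO. The mean of *Emr1* went from 5.48 to 4.81 CPM in WT and from 3.21 to 7.57 CPM in KO. That of *Cd68* stayed close, at 17.383 and 16.406 CPM in WT and 14.956 and 15.065 CPM in KO. Myeloid cells also express *Apoe* and, among the lowered genes, *Cfp* and *Plbd1*, and the part of such cells in these changes was not tested.

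Among the other raised genes, *Slc7a5*, the large neutral amino acid transporter, went from 10.8 to 15.1 CPM to 23.6 to 33.4 CPM in WT and from 13.8 to 19.4 CPM to 32.7 to 36.3 CPM in KO. It belongs to the integrated stress and amino acid response list, where 14 of 22 other tested genes were raised in WT and 12 in KO, 12 of them in both, and 2 were lowered in each. *Trib3* and *Asns*, typical ATF4 targets, rose by 1.86 and 1.82 in WT and by 2.11 and 1.47 in KO. *Txnrd3*, a thioredoxin reductase, changed by 1.52 and 1.32. Of 14 other tested genes on the NRF2 list, 9 were raised in WT and 3 in KO, and 1 was lowered in each, namely *Hmox1*. *Tifa*, an adaptor that engages TRAF6, changed by 1.07 and 1.01, while *Tnf* and *Lta* of the same list had fitted changes of -2.92 and -2.79 in WT and -2.46 and -2.12 in KO. *Rilpl2*, *Bend3*, *Pogk*, *Lamp3* and *Chst10* completed the 10 raised genes with the largest changes. *Chst10*, a sulfotransferase that makes the HNK-1 carbohydrate, stood apart within this group. It was at 26.7, 19.3 and 23.5 CPM in WT 0 h and 58.6, 64.9 and 64.8 CPM in WT 4 h, and at 14.3, 16.5 and 19.1 CPM in KO 0 h and 31.6, 35.3 and 35.8 CPM in KO 4 h. Every KO library was below every WT library of the same time.

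Among the 15 lowered genes with the largest changes, 6 were on none of the pathway lists. *Emid1* changed by -1.75 and -2.00, *Ankrd37*, a small ankyrin repeat protein, by -1.91 and -1.81, and *Dnahc8*, an axonemal dynein heavy chain, by -1.85 and -1.82. *Bzrap1*, a scaffold that binds RIM proteins, changed by -1.65 and -2.03, *Hip1*, an endocytic adaptor for clathrin and actin, by -1.71 and -1.80, and *1300014I06Rik* by -1.94 and -1.56. Over all 65 genes, 34 were on at least 1 list and 31 on none. No gene of the sterol synthesis, cell cycle or cyclic AMP lists was among the 65. In the cyclic AMP list 18 of 22 tested genes were raised in WT and 8 in KO, and the median fitted changes were 1.34 and -0.08.

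Genes lay close on both sides of each limit. *Chst10*, with 1.00 in KO and a difference of 0.40, sat at both limits, and *2700099C18Rik* and *Gsn* were next inside the size limit, with smaller changes of 1.00 and 1.01. *Scn4a*, *Ifi27l1* and *Fam43a* fell just short, with smaller changes of 0.99, 0.99 and 0.98 in size. *Fam55b*, *Fgd2* and *Tnf* missed the limit of 0.4 with differences of 0.41, 0.41 and 0.43, while *Bzrap1* and *1300014I06Rik* were inside with 0.38 each. *Tspan18*, *Lef1* and *Tlr3*, at means of 8.02, 8.73 and 9.23 CPM, were the lowest inside, and *Zfp69*, *Cplx2* and *AW011738*, at 7.97, 7.78 and 7.76 CPM, the highest outside.

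The rule did not use the level of a gene in WT against KO averaged over both times, so this was tested. The test was edgeR's quasi-likelihood test on all 12 libraries with TMM scaling, where positive values are higher in WT, and p-values were adjusted by Benjamini-Hochberg over 11563 genes. It took the 12 libraries as separate, though those of a genotype may share mice. Alternatives that merged the 0 h and 4 h libraries of a number are given below. It called 15 of the 65 genes, or 23.1%, where it called 8.67% of all genes and 10.2% of the 8820 genes at 8 or more CPM. Of the 15 genes, 7 were higher in WT and 8 in KO, against backgrounds of 4.53% and 4.13%. With library totals in place of TMM, 4 of 12 called genes were higher in WT. The differences were small. Only that of *Chst10* exceeded 0.5 on the log2 scale, 35 of the 65 genes were under 0.2 in size, and the median size was 0.18, against 0.0802 for all genes at 8 or more CPM. The called genes were 13 of the 48 lowered and 2 of the 17 raised ones.

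**Figure D5:**
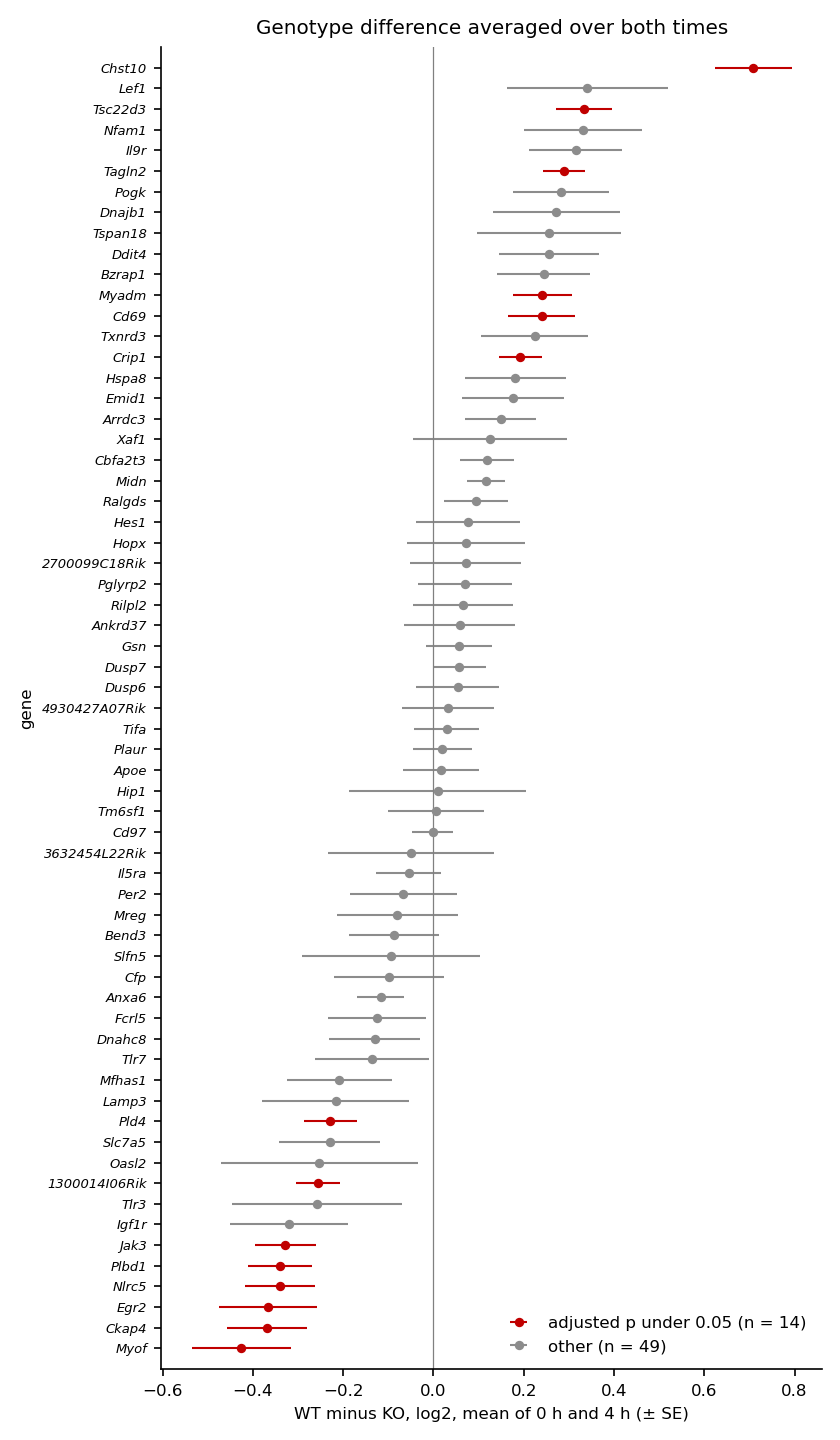
WT minus KO difference in log2 expression averaged over 0 h and 4 h for 63 of the 65 genes, with the standard error as a bar. Red points are the 14 of these genes with an adjusted p under 0.05 in edgeR's test, from *Chst10* at 0.71 to *Myof* at -0.43.

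*Chst10* was higher in WT by 0.71 ± 0.09 (SE, adjusted p = 7.68e-06, edgeR), in 6 of 6 same-time comparisons of a WT with a KO library of the same number. *Tsc22d3* was higher in WT by 0.33 ± 0.06 (adjusted p = 0.00116) and *Tagln2* by 0.29 ± 0.05 (adjusted p = 0.000208), and for both every WT library exceeded every KO library of its time. *Myadm*, *Cd69* and *Crip1* were higher in WT by 0.24, 0.24 and 0.19. *Cd69* passed narrowly (adjusted p = 0.0479) and lost the call in 16 of 18 alternatives. In the other direction, *Myof* was higher in KO, with a difference of -0.43 ± 0.11 (adjusted p = 0.0176), as were the membrane protein *Ckap4* (-0.37 ± 0.09, adjusted p = 0.0108) and *Egr2* (-0.37 ± 0.11, adjusted p = 0.0396), which lost the call in 11 of 18 alternatives. *Nlrc5* differed by -0.34 ± 0.08 (adjusted p = 0.0069), the lysosomal phospholipase-like *Plbd1* by -0.34 ± 0.07 (adjusted p = 0.0034) and *Jak3* by -0.33 ± 0.07 (adjusted p = 0.00296). *1300014I06Rik* and *Pld4* differed by -0.26 and -0.23. Neutrophil markers summed to 19.4 to 54.1 CPM in WT and 40.2 to 130 CPM in KO at 0 h, and to 22.6 to 56.1 CPM and 22.1 to 123 CPM at 4 h. Of the 5 that were tested, *Ltf*, *Camp* and *Ngp* were called higher in KO, and their part in the *Plbd1* difference was not tested.

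Without WT 4 h replicate 3 the same test called 16 of the 65 genes, 5 higher in WT and 11 in KO. Of the 5 genes it gained, 3 are on the interferon list. *Oasl2* then differed by -0.83 ± 0.13 (adjusted p = 0.000219), *Slfn5* by -0.56 ± 0.09 (adjusted p = 0.000326) and *Tlr7* by -0.40 ± 0.07 (adjusted p = 0.00117), all higher in KO, in edgeR's test. With all libraries their differences were -0.25, -0.09 and -0.14 and none was called. Of the 47 interferon list genes outside the 65, 2 were called higher in KO with all libraries and 9 without this one, and 0 were called higher in WT in either fit. Over all genes the share called higher in KO was 4.14% with all libraries and 3.47% without this one, among genes tested in both fits.

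The 65 genes lay on 17 chromosomes. The closest pair was *Crip1* and *4930427A07Rik* on chromosome 12, both on the plus strand and both lowered, with 2541 bases between them. Because the strand and the annotation used for counting were not stated, reads of such neighbours were taken as counted. *2700099C18Rik* is annotated as a pseudogene that is transcribed, and *3632454L22Rik* as a non-coding transcript. In GENCODE M21 the raised genes had a median 3′ UTR of 1893 bases with 2.12 ATTTA pentamers per kb, a sequence found in many unstable messengers, and the lowered genes one of 973.5 bases with 0.822 per kb. The medians over genes at 8 or more CPM were 1208 bases and 1.42 per kb. The middle 50% of the raised genes ran from 0.122 to 2.79 ATTTA per kb and that of the lowered genes from 0 to 2.04, so the groups overlapped widely. *Igf1r* had the longest 3′ UTR of the 65 genes, with 7270 bases, and *Hspa8* one of the shortest, with 86 bases.

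RefSeq start sites on GRCm38.p6 gave a promoter of 250 bases before to 50 after the start for 49 of the 65 genes. The motifs searched on both strands were the CArG box bound by serum response factor, the NF-kB site, the interferon-stimulated response element (GAAA and GAAA with 2 bases between), the cyclic AMP response element (TGACGTCA) and its shorter site (TGACG), which the full element and some antioxidant elements also hold, the forkhead site (GTAAACA), the RBPJ site (GTGGGAA), the E-box (CACGTG), the antioxidant response element core (TGACNNNGC), the liver X receptor element (AGGTCA and AGGTCA with 4 bases between), the glucocorticoid response element (AGAACA and TGTTCT with 3 bases between) and the heat shock element (GAA, TTC and GAA with 2 bases between each). A CArG box was in a promoter of 4 of the 49 genes, or 8.16%, and of 1.4% of genes at 8 or more CPM. These were the raised genes *Egr2* and *Lef1* and the lowered genes *Myadm* and *Hopx*, so the motif was present in both directions of change. The promoters of these 4 genes are printed 5′ to 3′ with the CArG box in capitals, since they show the motif most above its background. That of *Slfn5* is printed with the interferon response element in capitals, as the only match among the interferon genes here, of which 3 had a promoter.
Egr2, chr10:67537619-67537918, plus strand: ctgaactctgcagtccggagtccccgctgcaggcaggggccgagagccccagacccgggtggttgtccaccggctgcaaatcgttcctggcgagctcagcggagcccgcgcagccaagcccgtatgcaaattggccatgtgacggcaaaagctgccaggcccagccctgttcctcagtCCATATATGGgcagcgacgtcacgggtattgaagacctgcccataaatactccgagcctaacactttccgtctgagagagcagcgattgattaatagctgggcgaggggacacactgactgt
Lef1, chr3:131112541-131112840, plus strand: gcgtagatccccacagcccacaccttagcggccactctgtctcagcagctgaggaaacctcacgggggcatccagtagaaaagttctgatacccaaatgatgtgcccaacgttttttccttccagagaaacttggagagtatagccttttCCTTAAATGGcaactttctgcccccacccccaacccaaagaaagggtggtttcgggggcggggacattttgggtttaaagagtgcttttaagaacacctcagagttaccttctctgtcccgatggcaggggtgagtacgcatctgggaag
Myadm, chr7:3292778-3293077, plus strand: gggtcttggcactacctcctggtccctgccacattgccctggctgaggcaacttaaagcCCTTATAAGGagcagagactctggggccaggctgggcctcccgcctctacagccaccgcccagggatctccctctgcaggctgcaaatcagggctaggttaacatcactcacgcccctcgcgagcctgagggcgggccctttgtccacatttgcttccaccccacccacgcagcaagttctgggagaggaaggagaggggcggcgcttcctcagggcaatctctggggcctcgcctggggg
Hopx, chr5:77115074-77115373, minus strand: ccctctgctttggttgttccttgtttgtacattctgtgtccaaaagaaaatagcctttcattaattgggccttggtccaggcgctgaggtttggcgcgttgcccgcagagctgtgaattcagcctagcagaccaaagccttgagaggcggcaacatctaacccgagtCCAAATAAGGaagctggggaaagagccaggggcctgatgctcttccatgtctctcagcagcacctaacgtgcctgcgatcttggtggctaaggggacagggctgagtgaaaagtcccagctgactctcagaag
Slfn5, chr11:82951852-82952151, plus strand: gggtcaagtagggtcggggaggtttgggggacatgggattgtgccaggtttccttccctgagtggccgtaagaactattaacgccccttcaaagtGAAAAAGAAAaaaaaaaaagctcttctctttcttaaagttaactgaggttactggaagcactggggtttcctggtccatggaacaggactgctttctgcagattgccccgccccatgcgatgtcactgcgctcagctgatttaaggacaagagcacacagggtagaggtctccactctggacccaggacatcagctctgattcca

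The box began 72 bases before the start in the *Egr2* promoter printed here and 191 bases before it in that of *Myadm*, and the interferon element 155 bases before the start of *Slfn5*. The forkhead site was in 8.16% of the 49 genes and 3.05% of genes at 8 or more CPM (*Apoe*, *Lamp3*, *Bend3* and *Il5ra*), the RBPJ site in 12.2% and 6.98%, the NF-kB site in 8.16% and 5.95%, the E-box in 16.3% and 12.7%, and the antioxidant element in 26.5% and 17%. The interferon element was in 4.08% and 3.79% and the cyclic AMP element in 2.04% and 3.93%, the latter in *Pogk* alone. The shorter cyclic AMP site was in 26.5% of the 49 genes and in 39.1% of genes at 8 or more CPM. The glucocorticoid, heat shock and liver X receptor elements were in 0 of the 49 promoters. A match is a run of letters and not a bound site, and these windows hold no enhancers.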

How the data were processed

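RNA was sequenced from 12 libraries of sorted follicular B cells. The authors amplified RNA with the NuGEN Ovation RNA-seq System V2, prepared libraries with a KAPA Hyper kit, and sequenced single-end reads. STAR placed the reads on mm10 and HTSeq gave the counts per gene. Versions, strand setting and annotation are not given in the sources used here. They deposited raw counts per gene in one table per time, each with a row sum of 10 or more. Every column was mapped to a sample.

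CPM used the column sum of a table. The rule for the 65 genes was as stated in the report. The genes and lists were chosen with earlier results of these data known. Genotype and culture were tested in one fit of the 4 groups with edgeR 4.0.16 in R 4.3.3 (TMM, filterByExpr, glmQLFit, glmQLFTest) with Benjamini-Hochberg adjusted p under 0.05, over the genes in both tables. A permutation of 3 against 3 libraries cannot give p under 0.1, so the p-values come from the model of the counts. Counts have no molecular identifiers and errors cover counting and replicate spread. Replicates differed beyond sampling noise (chi-square per degree of freedom 2.0 to 9.88), so all were kept. Genes were named if they had the 10 largest raised or 15 largest lowered changes, were on a gene list, were among up to 5 called for genotype in each direction, or were nearest a limit. *Slamf1*, *Ets2*, *Cd97*, *Il5ra*, *Jak3* and other examples outside this rule were chosen after their values were seen. Alternatives were other scalings, pseudocounts, limits, filters, DESeq2 1.42.0, limma 3.58.1, each library left out and a replicate block. Of the 65 genes, 2 stay in all counts but are not reported here by name.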

Additional observations from a re-analysis of the deposited data

How the results depend on the processing

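The rule gave 52 to 83 genes over 22 alternatives, and 58 to 68 with any library left out. Of the 65 genes, 22 were kept in every alternative and 45 in at least 20. The smallest change of any of them in any alternative was 0.79. *Chst10* was kept in 9 of 22, and *2700099C18Rik* and *Tspan18* in 12. The median fitted culture change of all genes was higher with library totals than with TMM, by 0.109 in WT and 0.0902 in KO on the log2 scale. With TMM the rule gave 9 raised and 56 lowered genes in place of 17 and 48, with 56 of 65 shared. *Chst10*, *Slc7a5*, *Lef1* and *Tifa* were among the raised genes lost.

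The genotype average was called for 669 to 1057 genes with any library left out, and for 9 to 16 of the 65 genes, with 9 without KO 4 h replicate 3. Counts summed over both times, with 3 sums against 3, called 565 genes, 525 of them shared with the 1002, and 15 of the 65 genes, 11 of them higher in WT. The 0 h libraries supplied 58.6% of the summed WT counts and 50% of the KO counts, which by construction raises lowered genes in WT. Means of log2 CPM per number, an alternative chosen after seeing the data, called 724 genes and 12 of the 65 genes, 5 higher in WT and 7 in KO. With library totals in place of TMM, 353 of 977 calls were higher in WT, against 524 of 1002, and 4 of 12 among the 65 genes. With library totals the culture calls raised at 4 h were 3003 of 4503 in WT, against 1749 of 3828, and 2168 of 3270 in KO, against 1193 of 2697. *Chst10*, *Crip1*, *Jak3*, *Nlrc5*, *Tagln2* and *Tsc22d3* were called in all alternatives. *Cd69* lost its call in 16, *Egr2* in 11, *Myadm* in 6, *Myof* in 3, *Pld4* in 2, and *1300014I06Rik*, *Ckap4* and *Plbd1* in 1 each. No gene changed direction. The causes were not tested. Culture calls numbered 3240 to 3777 in WT and 1919 to 2890 in KO with any library left out.

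Same-numbered 0 h and 4 h libraries deviated together weakly, with r of 0.103 to 0.148 in WT and -0.0447, 0.127 and 0.131 in KO across genes. Yet 10 of 12 libraries correlated best with their own number in the same genotype. These values cannot settle whether a number stands for a mouse. The main fit did not take the numbers as pairs, so its errors may not reflect the spread between mice. With the replicate block the rule gave 67 genes, 63 of them shared, and the genotype average was called for 1001 genes and 15 of the 65, 14 of them the same. Culture was called for 3820 genes in WT and 2709 in KO. In these fits the block was a term per number shared by WT and KO, so it did not model a mouse within a genotype.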

Other observations

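Some of the genes that were on none of the pathway lists are known from other settings. *Plaur*, the urokinase receptor, was at 85.8 to 107 CPM in WT 0 h and 35.0 to 39.0 CPM in WT 4 h, and at 89.6 to 96.5 CPM and 35.6 to 43.1 CPM in KO. *Fcrl5*, an Fc receptor-like molecule of B cells, was at 22.7 to 30.5 CPM and 8.96 to 10.7 CPM in WT, and at 28.1 to 35.1 CPM and 9.73 to 12.1 CPM in KO. *Cbfa2t3*, a transcriptional corepressor, was at 82.5 to 93.7 CPM and 29.7 to 35.3 CPM in WT, and at 73.4 to 83.3 CPM and 29.9 to 33.6 CPM in KO. In these 3 genes the 0 h and 4 h libraries were separated in both genotypes and the WT and KO libraries overlapped at 4 h. They are named here after their values were seen.

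Among the raised genes outside the 10 largest, *Lef1*, a transcription factor of the Wnt pathway, was at 4.48 to 8.18 CPM in WT 0 h and 12.5 to 14.5 CPM in WT 4 h, and at 3.33 to 6.85 CPM and 10.4 to 11.9 CPM in KO. *Il9r*, the interleukin-9 receptor, was at 16.3 to 21.7 CPM and 43.5 to 45.4 CPM in WT, and at 15.5 to 17.7 CPM and 26.7 to 43.4 CPM in KO. *Mreg*, which encodes melanoregulin, was at 5.09 to 10.7 CPM and 17.5 to 20.3 CPM in WT, and at 7.97 to 9.14 CPM and 17.7 to 20.1 CPM in KO. The KO 4 h libraries of *Il9r* had the widest spread of the 3 genes. These too are named after their values were seen.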
